A study of Homo sapiens with 6 samples.

Results

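The interferon-stimulated effectors are genes that cells switch on when interferon binds its receptors, and whose proteins act against viruses, tag other proteins or regulate the response itself. The list held 39 such genes, chosen by name, and left out the IFIT family. Of these, 38 had at least 1 probe named for them among the 18852 named genes of the array, with 55 of its 48803 probes in all, and USP18 had none named in the annotation used here. The cells were IGROV-1, an established line from a human ovarian carcinoma, and each of 6 samples was read on a single-colour Illumina bead array. Of these samples 3 had been given saline and 3 the CpG oligonucleotide (CpG-ODN), whose dose was 10 µM and whose exposure lasted 24 h. For saline the sources used here state no time. Both groups were the same line with no other agent or allele named, and nothing in the labels says that samples of a group were separate cultures. The p-values therefore measure the spread between these samples, which may be technical.

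As background, type I interferon signals through a receptor pair and its kinases to a transcription factor complex that binds the interferon-stimulated response element, a DNA motif near the start of the genes it induces. Interferon gamma acts through a second motif, the gamma-activated site. DNA with unmethylated CpG motifs is known to bind Toll-like receptor 9, and in plasmacytoid dendritic cells this leads to interferon secretion. Tumour cells can also keep some interferon-stimulated genes on without added interferon.

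The oligonucleotide itself is shown because its CG pairs, in capitals, are the feature the receptor is known to bind. It had 20 bases and 2 CG pairs. No oligonucleotide without CG pairs was among the samples, so the part of these pairs cannot be told apart from that of the rest of the molecule.
ODN1826: tccatgaCGttcctgaCGtt

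The response element links many of the members at the sequence level, so the stretches that hold it are shown for 8 members that had a match and the smallest p of their role, and for 3 members that were not measured. RefSeq promoters of GRCh38.p14, 300 bases from 250 before the annotated start to 50 after it, were found for 32 members, with 44 windows. The core letters of the response element, GAAA and again GAAA with any 2 bases between, were searched on both strands and occurred in 24 of these 44 windows (54.5%), against 3.57% of all 35116 promoters in the table. By gene, 21 of the 32 members (65.6%) had a match, among them 18 of 26 members that were measured and 3 of 6 that had a probe but were not. The gamma-activated letters TTCNNNGAA, which read alike on both strands, occurred in 11 of the 44 windows (25%), against 7.66% of all promoters. Both motifs stood in 1 window in 7 members, and in 5 of these (BST2, EPSTI1, IFI27, IFITM1 and MX1) they shared letters. The members were listed as genes that interferon switches on, so these shares describe the list and are not a test. A match is a stretch of letters and was not measured as bound. Each stretch below has 60 bases upstream of the start on the strand of the gene, with these core letters or their reverse complement in capitals.
DDX60 (chr4:168318789-168318848, minus strand): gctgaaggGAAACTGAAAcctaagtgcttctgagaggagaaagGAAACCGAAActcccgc
IFI44 (chr1:78649729-78649788, plus strand): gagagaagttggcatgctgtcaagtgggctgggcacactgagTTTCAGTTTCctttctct
ISG15 (chr1:1013362-1013421, plus strand): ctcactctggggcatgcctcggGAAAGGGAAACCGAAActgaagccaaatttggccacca
PARP9 (chr3:122564307-122564366, minus strand): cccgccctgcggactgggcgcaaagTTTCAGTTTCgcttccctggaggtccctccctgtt
OAS3 (chr12:112938414-112938473, plus strand): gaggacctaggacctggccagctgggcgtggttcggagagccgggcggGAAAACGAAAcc
IFITM3 (chr11:320870-320929, minus strand): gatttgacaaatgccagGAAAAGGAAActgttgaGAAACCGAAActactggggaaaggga
ISG20 (chr15:88638922-88638981, plus strand): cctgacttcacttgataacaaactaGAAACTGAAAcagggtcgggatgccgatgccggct
IFI6 (chr1:27672262-27672321, minus strand): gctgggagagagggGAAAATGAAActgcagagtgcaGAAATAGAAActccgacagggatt
RSAD2 (chr2:6877607-6877666, plus strand): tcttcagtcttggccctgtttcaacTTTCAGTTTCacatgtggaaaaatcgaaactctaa
IFI27 (chr14:94110609-94110668, plus strand): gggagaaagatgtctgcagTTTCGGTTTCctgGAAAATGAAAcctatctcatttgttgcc
GBP1 (chr1:89065301-89065360, minus strand): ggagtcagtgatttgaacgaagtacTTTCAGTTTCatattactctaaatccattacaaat

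Between 17142 and 18790 probes were detected on an array, that is, had a detection p under 0.05, and 35 to 37 of the members' 55 probes were. The CpG-ODN arrays differed more from each other than the saline arrays did. On the log2 scale and over 11040 genes, the correlation was 0.990 to 0.992 within saline and 0.965 to 0.984 within CpG-ODN, lowest between CpG-ODN 1 and CpG-ODN 2. Over the measured members, the differences between these 2 CpG-ODN arrays had a standard deviation (SD) of 0.64 on the log2 scale. The other CpG-ODN pairs had 0.42 and 0.40 and the saline pairs 0.27 to 0.39. For DDX60, ISG15, IFIH1 and HERC5, values without CpG-ODN 1 and without CpG-ODN 2 are therefore given too. Of 9 epithelial and ovarian carcinoma markers, 7 were detected on all 6 arrays, among them EPCAM, PAX8 and KRT19. The 6 markers of T and NK cells were detected on no array. Of 6 markers of B cells and plasmacytoid dendritic cells, CLEC4C and LILRA4 were detected on no array. CD79A, IL3RA and MS4A1 were detected on some, and 1 marker had no probe named. Of 6 monocyte and macrophage markers, CD14 and CD68 were detected on all arrays, CSF1R and ITGAM on none and AIF1 and LYZ on some.

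Many of the effectors were on in saline-treated IGROV-1 cells. Of the 39 members, 29 (74.4%) were measured, meaning that a probe was detected on at least 3 of the 6 arrays, where 58.6% of all named genes were. The share of members counts USP18, which had no probe named, while the share of all genes covers only genes with a named probe. Each measured member was detected on at least 2 arrays of both groups. All 5 members of the group with IFI30, IFI35, IFI44, IFI44L and EPSTI1 were measured, as were the 3 nucleic acid sensors and helicases, the 4 membrane restriction factors and both interferon regulatory factors. The 9 members that had a probe and were not measured came from 5 groups of roles: the GTPase genes MX2 and GBP1, the oligoadenylate synthetase genes OAS2 and OASL, the nucleotide enzyme genes RSAD2 and CMPK2, IFI27 and XAF1, and SAMD9L. Levels of different probes were not used to say which of these genes was more abundant.

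Of these 9 members, 8 were detected on no array of either group, on any of their 14 probes. Their intensities, before normalization and on a linear scale, ran from 77.4 to 136.1, with detection p-values from 0.0514 to 0.997. RSAD2 encodes viperin, an enzyme that makes a chain-terminating nucleotide, and its probe read 111.7, 110.5 and 128.3 on saline arrays 1 to 3 and 101.6, 121.3 and 110.1 on CpG-ODN arrays 1 to 3. None of these 6 readings was detected, and the groups overlapped. All 4 probes of OAS2 and both of OASL, GBP1 and XAF1 were likewise not detected on any array, so for these genes the result does not rest on a single probe. IFI27, a small hydrophobic protein of mitochondrial membranes, was detected on 2 saline arrays and 0 CpG-ODN arrays. Its intensity was 148.5, 133.8 and 138.3 in saline and 122.7, 109.3 and 136.5 in CpG-ODN, so that the groups overlapped and most readings lay at the edge of detection.

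**Figure D1:**
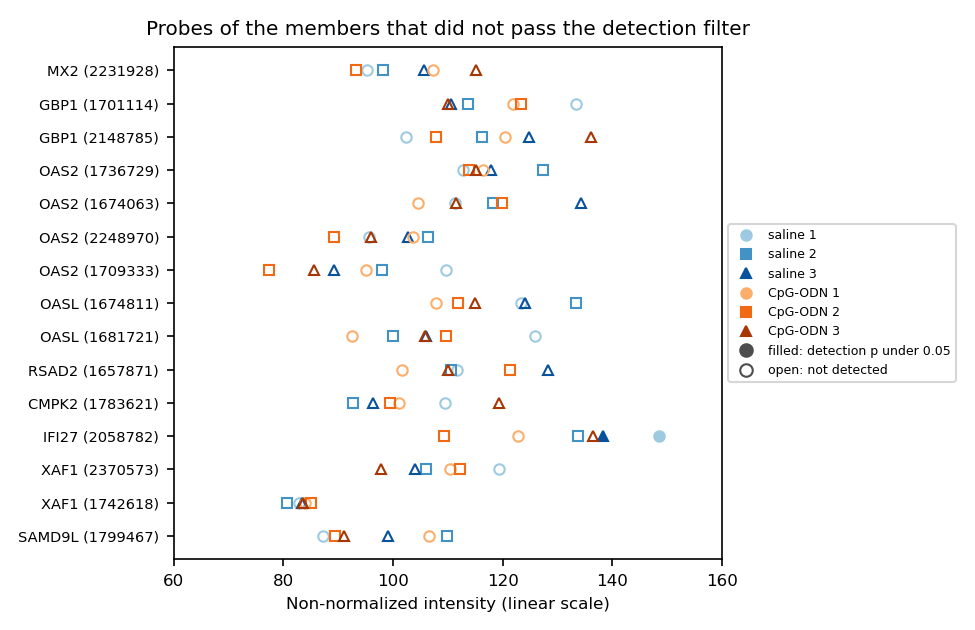
Non-normalized intensity (linear scale) of the 15 probes of the 9 members that had a probe and were not measured, with 1 row for each probe, labelled by gene and probe number, and 1 point for each array. Filled points were detected: the 2 filled points are saline arrays of IFI27, and all other points are open.

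The comparison of CpG-ODN with saline asked whether the oligonucleotide changed the transcripts of these tumour cells. No member passed the test. With limma and Benjamini-Hochberg adjustment, 0 of the 29 measured members had an adjusted p under 0.05, against 0 of 11040 genes tested (0%), and the smallest adjusted p of a member was 1. Of the 29 members 10 had a higher and 19 a lower mean in CpG-ODN, so 65.5% were lower, against 51.1% of all genes. At an unadjusted p under 0.05 there were 2 members, DDX60 and IFI44, both lower, and 0 higher, where 3.58% of all genes had such a p (1.64% lower and 1.94% higher). The same 2 were the members whose groups did not overlap, with 3 CpG-ODN arrays below the 3 saline arrays and 0 members the other way round. Over all genes 9.35% had groups that did not overlap, 5.05% lower and 4.3% higher. An exact permutation of 3 against 3 arrays cannot give a p below 0.10. In RNA from a whole culture, fewer cells with a transcript and less of it per cell cannot be told apart.

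The median difference of the members (log2 level in CpG-ODN minus that in saline) was −0.04, beside −0.01 over all genes. It moved with the CpG-ODN array that was left out. Without CpG-ODN 1 the median was 0.06, with 15 members higher and 14 lower. Without CpG-ODN 2 it was −0.11, with 7 members higher and 22 lower. Without CpG-ODN 1 and CpG-ODN 2, which leaves 1 CpG-ODN array, it was −0.09, with 9 members higher and 20 lower. The values ran from −0.84 for DDX60 to 0.18 for EPSTI1, and 27 of 29 members (93.1%) lay within 1.5-fold either way, against 98.8% of all genes.

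The intervals give the size of change that each probe's readings leave possible. On the brightest probe of each gene, the 95% interval of 27 of the 29 members lay inside 2-fold in both directions, and that of 14 lay inside 1.5-fold (95.5% and 51.8% of all genes). The highest upper end was 0.64 on the log2 scale, or 1.56-fold higher, and belonged to EPSTI1. For 26 members the upper end lay under 1.5-fold. Both members whose interval went past 2-fold, DDX60 and ISG15, did so downwards. These limits do not cover the 8 other tested probes of 6 members. Of those 8 probes 3 had an upper end past 1.5-fold, 2 of them for OAS1 and 1 for OAS3, and 1 probe of OAS1 reached 2.29-fold. Each interval covers 1 gene at a time and the spread of these samples, and the offset of the background correction draws the differences of dim probes towards 0.

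**Figure D2:**
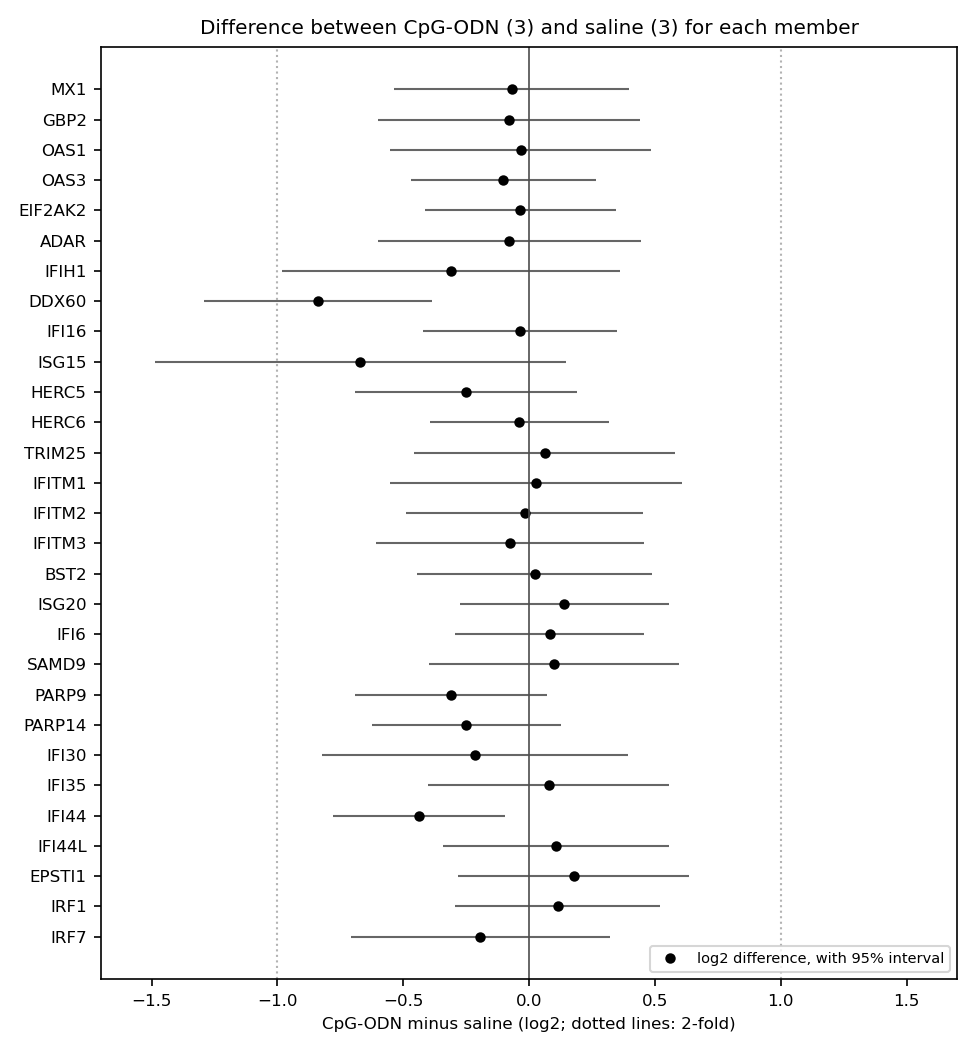
Difference in log2 level, CpG-ODN minus saline, on the brightest probe of the 29 measured members in order of role. Points are differences of group means over 3 arrays each, bars are 95% intervals of the limma fit and dotted lines mark 2-fold. Only the bars of DDX60 and IFI44 leave out 0, and only those of DDX60 and ISG15 cross a dotted line, on the lower side.

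**Figure D3:**
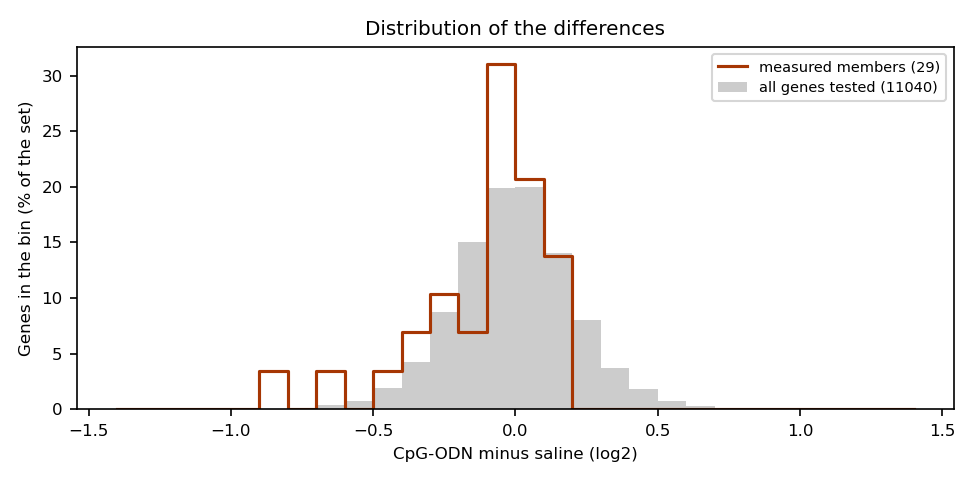
Share of genes (%) in bins of 0.1 log2 units of CpG-ODN minus saline, for all 11040 genes tested (grey bars) and for the 29 measured members (line). The members lie between −0.84 and 0.18, so no member falls in the upper bins that hold some genes of the whole set.

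Among members the nucleic acid sensors and helicases held the lowest value. DDX60, a helicase gene induced by interferon and known to take part in antiviral RNA sensing, had normalized log2 levels of 7.77, 7.49 and 7.52 on saline arrays 1 to 3 and of 7.10, 6.42 and 6.75 on CpG-ODN arrays 1 to 3. Every CpG-ODN array was lower than every saline array, with CpG-ODN 2 the lowest. The mean was 7.60 ± 0.15 (SD, n = 3) in saline and 6.76 ± 0.34 in CpG-ODN, a difference of −0.84 ± 0.20 (SE), or 1.79-fold, with a 95% interval from −1.29 to −0.39 (unadjusted p = 0.00226, adjusted p = 1 in limma). The value was −1.01 without CpG-ODN 1, −0.67 without CpG-ODN 2 and −0.84 without both. With the deposited normalized values, which had no background subtraction, it was −0.51. DDX60 passed the test in 1 alternative, with array weights (adjusted p = 0.0268), in which CpG-ODN 3 had a weight of 5.25 against 0.244 and 0.335 for CpG-ODN 1 and 2. Over all alternatives the adjusted p ran from 0.0268 to 1.

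The other 2 sensors did not move as a group with it. IFIH1, which encodes the RNA sensor MDA5, had levels of 6.94, 6.63 and 6.33 in saline and of 6.98, 5.74 and 6.25 in CpG-ODN. CpG-ODN 1 lay above all 3 saline arrays and the other CpG-ODN arrays below them, and the difference was −0.31 ± 0.30 (SE). It was −0.64 without CpG-ODN 1, −0.02 without CpG-ODN 2 and −0.38 without both. IFI16, a DNA sensor of the nucleus and cytoplasm, differed by −0.04 ± 0.17, with overlapping groups.

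IFI44 was the second member with groups that did not overlap. This interferon-induced gene had levels of 8.68, 8.73 and 8.53 in saline and of 8.23, 8.11 and 8.28 in CpG-ODN. The CpG-ODN arrays lay close together, with an SD of 0.085 (n = 3), and all below the saline arrays. The difference was −0.44 ± 0.15 (SE), or 1.35-fold lower, with an interval from −0.78 to −0.10 (unadjusted p = 0.0175, adjusted p = 1 in limma), and over the alternatives it ran from −0.50 to −0.34.

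Its paralogue and neighbour IFI44L did not share this value. On its brightest probe IFI44L lay at 7.09, 7.26 and 6.67 in saline and at 7.03, 7.36 and 6.96 in CpG-ODN, and these groups overlapped, with a difference of 0.11 ± 0.20 (SE). Its second probe, detected on 3 saline arrays and 1 CpG-ODN array, gave −0.28 ± 0.21. The rest of this group had overlapping groups too. EPSTI1 differed by 0.18 ± 0.21, IFI35 by 0.08 ± 0.21 and IFI30, the lysosomal thiol reductase that helps unfold antigens, by −0.22 ± 0.27.

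ISG15 is a ubiquitin-like protein that is joined to other proteins during the response, HERC5 is the ligase that joins it in human cells, and TRIM25 is a ubiquitin ligase that acts on the RNA sensor RIG-I. Of the 5 genes of this system 4 were measured, and 0 passed. ISG15 had levels of 8.32, 7.94 and 8.997 in saline and of 7.18, 8.54 and 7.53 in CpG-ODN. CpG-ODN 1 and 3 lay below all saline arrays, while CpG-ODN 2 lay within their range, so the groups overlapped. The difference was −0.67 ± 0.36 (SE), with an interval from −1.49 to 0.15 (unadjusted p = 0.0968, adjusted p = 1 in limma). It was −1.06 without CpG-ODN 2, −0.39 without CpG-ODN 1, −0.38 without saline 3 and −0.89 without CpG-ODN 1 and 2. ISG15 also varied within saline, with an SD of 0.53 (n = 3), where the median SD of the measured members was 0.21.

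HERC5 differed by −0.25 ± 0.20 (SE), with CpG-ODN 2 at −0.62 relative to the saline mean and CpG-ODN 1 and 3 at −0.09 and −0.04. Its difference was −0.33 without CpG-ODN 1 and −0.07 without CpG-ODN 2. HERC6, its neighbour on chromosome 4, differed by −0.04 ± 0.16. TRIM25 differed by 0.06 ± 0.23, with CpG-ODN 1 at −0.36 and CpG-ODN 2 at 0.56 relative to the saline mean. In all 4 genes the SD was larger in CpG-ODN than in saline, as it was in 20 of the 29 measured members and in 8269 of 11040 genes.

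PARP9 and PARP14, members of the ADP-ribosyltransferase family that are induced together with other interferon-stimulated genes, both had lower means. PARP9 had levels of 8.46, 8.55 and 8.84 in saline and of 8.21, 8.25 and 8.46 in CpG-ODN. The groups met at one point, where CpG-ODN 3 equalled saline 1 to 3 decimals. Its difference was −0.31 ± 0.17 (SE), with an interval from −0.69 to 0.07 (unadjusted p = 0.101, adjusted p = 1 in limma), and −0.17 ± 0.28 on its second probe. PARP14 differed by −0.25 ± 0.17, with CpG-ODN 3 above saline 3. SAMD9, which restricts poxviruses, differed by 0.10 ± 0.22 and its neighbour SAMD9L was not detected.

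The enzymes that make or sense double-stranded RNA signals held 0 calls, and their probes and arrays did not all point one way. OAS1 and OAS3 make oligoadenylates that activate an RNA-cutting enzyme, EIF2AK2 encodes the kinase PKR, which halts translation, and ADAR edits double-stranded RNA. On the brightest probe, all 4 measured genes of this group had a lower mean, with differences from −0.10 to −0.03 on the log2 scale, and the groups overlapped in each. OAS3 had levels of 8.77, 8.70 and 8.64 in saline and of 8.50, 8.83 and 8.47 in CpG-ODN. CpG-ODN 2 lay above the saline arrays and the others below, and the difference was −0.10 ± 0.16 (SE), with an interval from −0.47 to 0.26.

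ADAR was tight in saline and wide in CpG-ODN. Its levels were 12.01, 12.07 and 11.94 in saline and 12.47, 11.53 and 11.79 in CpG-ODN, with SDs of 0.062 and 0.48. CpG-ODN 1 lay above and CpG-ODN 2 and 3 below all saline arrays. On its second tested probe all 3 CpG-ODN arrays lay below saline, with a difference of −0.33 ± 0.18 (SE, unadjusted p = 0.107), which did not pass. EIF2AK2 differed by −0.04 ± 0.17.

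OAS1 had 4 tested probes, and they did not give 1 direction. The brightest gave −0.03 ± 0.24 (SE) in the fit over all probes, and the others gave 0.09 ± 0.23, 0.60 ± 0.27 (interval from 0.007 to 1.20, unadjusted p = 0.048) and −0.18 ± 0.23. The groups overlapped on each of the 4 probes. Of 6 members with several tested probes, 4 (OAS1, OAS3, IFI6 and IFI44L) had probes of opposite sign, and ADAR and PARP9 had probes on the same side. Which transcripts each probe reads was not determined here.

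The membrane restriction factors were detected on all 6 arrays and had differences near 0. IFITM1, IFITM2 and IFITM3 hinder the fusion of virus and cell membranes, and BST2, or tetherin, holds budding viruses at the cell surface. IFITM3 had levels of 12.71, 13.15 and 13.21 in saline and of 12.49, 13.31 and 13.03 in CpG-ODN. CpG-ODN 1 lay below all saline arrays and CpG-ODN 2 above them, and the difference was −0.08 ± 0.24 (SE), with an interval from −0.61 to 0.46. IFITM1 (0.03 ± 0.26) and IFITM2 (−0.02 ± 0.21) had the same order of arrays. Relative to the saline mean, CpG-ODN 1 lay at −0.52 for IFITM1 and −0.40 for IFITM2, CpG-ODN 2 at 0.57 and 0.34, and CpG-ODN 3 at 0.03 and 0.01. These 3 genes are close copies of each other, and how far their probes cross-hybridize was not tested. BST2 differed by 0.02 ± 0.21.

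Of the GTPases, MX1 and GBP2 were measured. GBP2, a guanylate-binding protein gene, was near the edge of detection, on 2 arrays of each group. Its levels were 5.70, 5.33 and 5.90 in saline and 5.80, 5.12 and 5.78 in CpG-ODN, and the groups overlapped, with a difference of −0.08 ± 0.23 (SE). MX1, a dynamin-like GTPase that blocks influenza virus, differed by −0.07 ± 0.21, with CpG-ODN 1 and 2 below the saline arrays and CpG-ODN 3 above them. Without CpG-ODN 1 and 2 the value of MX1 was 0.36.

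ISG20, an RNA exonuclease, and IFI6, a small membrane protein that opposes cell death, were each the sole measured gene of their role. ISG20 had levels of 11.47, 11.78 and 11.66 in saline and of 11.47, 11.91 and 11.95 in CpG-ODN. CpG-ODN 2 and 3 lay above the saline arrays and CpG-ODN 1 level with the lowest of them, and the difference was 0.14 ± 0.19 (SE). IFI6 lay at 10.65, 10.62 and 10.50 in saline and at 10.52, 10.92 and 10.58 in CpG-ODN, with overlapping groups and a difference of 0.08 ± 0.17. Its second probe gave −0.16 ± 0.25.

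The transcription factors IRF1 and IRF7, which bind response elements of this kind, gave no common direction. IRF7, which amplifies interferon production, had levels of 7.27, 6.69 and 6.53 in saline and of 6.92, 6.61 and 6.37 in CpG-ODN. Saline 1 was the highest and CpG-ODN 3 the lowest, with the rest between, and the difference was −0.19 ± 0.23 (SE). The other IRF7 probes, with differences of −0.24 and 0.27, were detected on no array, so this result rests on a single probe. IRF1 differed by 0.11 ± 0.18, also with overlapping groups.

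**Figure D4:**
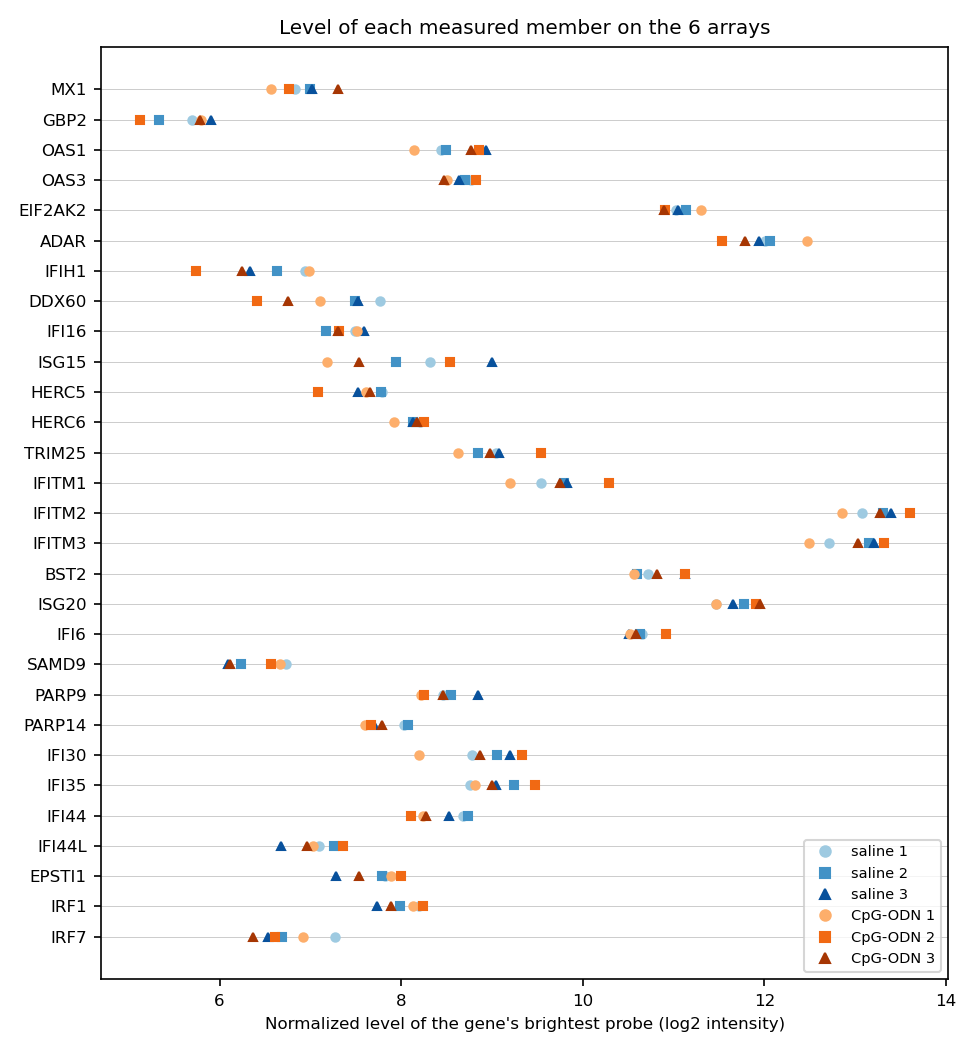
Normalized log2 level of the brightest probe of each of the 29 measured members, in order of role, on 3 saline arrays (blue) and 3 CpG-ODN arrays (orange). Levels are to be read within a row, since probes differ in brightness. In DDX60 and IFI44 all orange points lie left of the blue ones.

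The members did not move as 1 block across the CpG-ODN arrays. Relative to the saline mean, the median of the 29 members was −0.20 on CpG-ODN 1, 0.12 on CpG-ODN 2 and −0.09 on CpG-ODN 3, where the median of all genes was −0.01, −0.01 and −0.00. On CpG-ODN 1 there were 15 members below all 3 saline arrays and 4 above them (35.3% and 33.2% of all genes). On CpG-ODN 2 there were 10 below and 14 above (35.9% and 34.6%), and on CpG-ODN 3 there were 8 below and 2 above (24.8% and 24.7%). CpG-ODN 1 and 2 stood on opposite sides of the saline mean for 19 members (65.5%), as they did for 55.4% of all genes.

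In 13 of these 19, CpG-ODN 1 was below and CpG-ODN 2 above, and this set held all 4 membrane restriction factors, ISG15, OAS1, OAS3, TRIM25 and IFI30. In the other 6 the order was turned: ADAR, EIF2AK2, IFIH1, IFI16, GBP2 and IRF7. All 3 CpG-ODN arrays lay below the saline mean for 5 members (DDX60, IFI44, PARP9, PARP14 and HERC5), or 17.2%, where 14.6% of all genes did so. All 3 lay above it for 0 members, where 13.6% of all genes did.

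**Figure D5:**
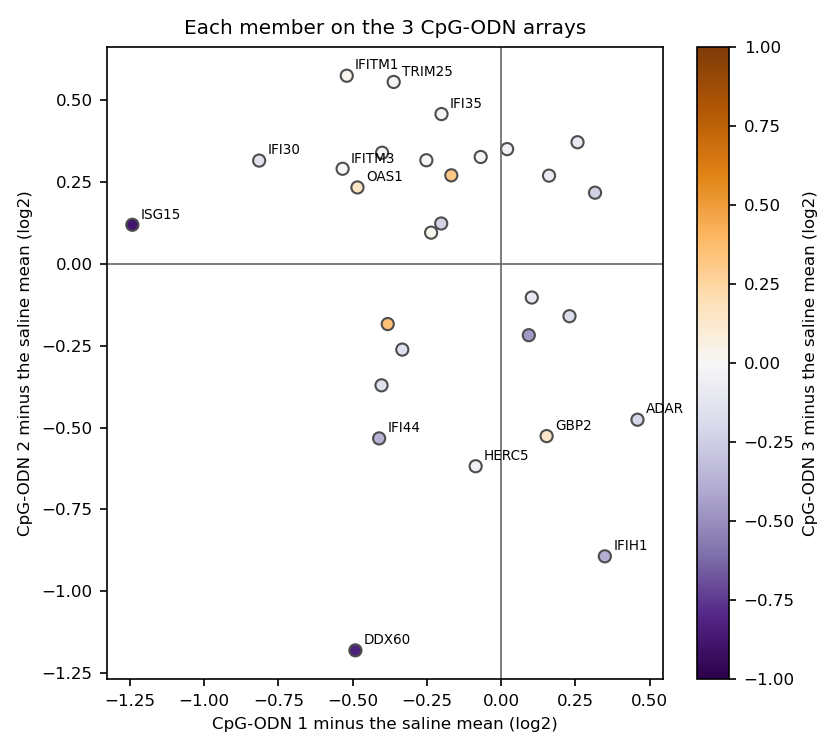
Each measured member's level on CpG-ODN 1 (x axis) and CpG-ODN 2 (y axis), both minus its saline mean in log2 units, with CpG-ODN 3 as the colour (purple below, orange above the saline mean). Names mark members beyond 0.45 on either axis. Of the 29 points 19 lie in the quadrants where the 2 arrays differ in sign, and DDX60 and IFI44 lie in the quadrant below 0 on both.

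All genes tested were divided by mean level into 3 classes of equal size, and the members had lower medians than the other genes in the dimmest and middle classes. In the dimmest class the 9 members had a median of −0.08, with 7 lower, against −0.00 over the 3671 genes outside the list (50.5% lower). The 13 members of the middle class had a median of −0.04, with 8 lower, against 0.00 over 3667 genes (49% lower). Within the brightest class the 7 members had a median of −0.02, with 4 lower, as the 3673 other genes did (median −0.02, 53.8% lower). Within saline the median SD of the members was 0.29 against 0.23 for the other genes in the dimmest class, 0.21 against 0.14 in the middle class and 0.16 against 0.11 in the brightest. These values are descriptions, with no test. The class medians rest on the same CpG-ODN arrays, on which the median of all measured members differed in sign.

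Many members are neighbours in the genome. With starts under 1 Mb apart in RefSeq, 17 pairs that involve 23 members stand on the same chromosome. Both genes were measured in 11 pairs, with the same sign in 6 of them. In 5 pairs 1 gene was measured: MX1 was and MX2 was not, GBP2 was and GBP1 was not, SAMD9 was and SAMD9L was not, and OAS1 and OAS3 were while OAS2, their neighbour, was not. RSAD2 and CMPK2, which lie side by side, were both undetected.

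Other genes of the pathway gave 0 calls as well. Of the interferon genes listed, 7 of 9 were detected on no array (IFNA1, IFNA2, IFNB1, IFNG, IFNK, IFNL1 and IFNL3), and IFNE alone was measured, at −0.13 ± 0.26 (SE). The 10 measured receptors and signal transducers had 5 higher and 5 lower means and a median of −0.04, with IFNAR1 at −0.31 ± 0.19 and the kinase gene JAK1 at −0.35 ± 0.22. Negative regulators had 1 higher and 5 lower, with PIAS1 at −0.26 ± 0.15 and SOCS3 at −0.45 ± 0.32, and SOCS1 was detected on no array. Among inducers of interferon 12 of 16 were measured, 3 higher and 9 lower, and TLR7, TLR8 and TLR9 were detected on no array. Of these, STING1, the adaptor of the cytosolic DNA pathway, lay at −0.35 ± 0.15 (unadjusted p = 0.0445, adjusted p = 1 in limma) and TICAM1 at −0.26 ± 0.15.

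Set against these, the 4 IFIT genes all had lower means, with a median of −0.76. IFIT1 lay at −1.32 ± 0.25 (unadjusted p = 0.000497 in limma) and IFIT3 at −0.92 ± 0.29 (unadjusted p = 0.0108 in limma). Both had groups that did not overlap, and they did not pass either (adjusted p = 1 in limma). Antigen presentation genes had 2 higher and 4 lower of 6 measured, with TAP2 at −0.18 ± 0.23. PSMB9, an immunoproteasome subunit, was detected on 3 arrays of saline and on 0 of CpG-ODN. It was at least 1.64-fold lower in CpG-ODN by the bound of the lowest detected signal (unadjusted p = 0.00102, adjusted p = 1 in limma). The interval of its difference, −1.35 to −0.48, also holds smaller changes. The summed intensity of the 3 endothelial markers also differed between the groups, from 1011 to 1042 in saline and from 775 to 859 in CpG-ODN, with PECAM1 and VWF detected on all arrays and CDH5 on none. These genes went opposite ways, with VWF at −0.41 ± 0.18 (SE) and PECAM1 at 0.36 ± 0.24, and neither passed. Of the monocyte markers, CD14 lay at −0.32 ± 0.17 and CD68 at 0.27 ± 0.16, each with groups that did not overlap, and neither passed. The part of these genes in the lower values of DDX60 and IFI44 was not tested.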

How the data were processed

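The non-normalized probe intensity of each array was deposited on a linear scale, without background subtraction, per the file headers and the values, with a detection p-value per probe deposited beside it. The submitters' processing notes name BeadStudio, without a version. A second deposited table held normalized intensities, for which no method is stated in the sources used here. It lay within 0.0222 log2 units of quantile normalization alone.

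From the non-normalized intensities, background was corrected (nec, offset 16, with the negative controls estimated from detection p) and log2 values were quantile normalized with limma 3.58.1 in R 4.3.3. A probe was kept if 3 or more of the 6 arrays gave it a detection p under 0.05 (17950 of 48803). Probes were named from the platform annotation (28098 with 1 symbol, 13 with several, 20692 with none), and symbols were checked by gene number in RefSeq GRCh38.p14. A gene was represented by its brightest kept probe, which gave 11040 genes.

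Group was the sole term of lmFit and eBayes, with Benjamini-Hochberg adjustment over all genes and a threshold of 0.05. The fit was tested on simulated data with noise independent between genes and arrays. That test does not tell how large a change these arrays could reveal. The members and lists were chosen with earlier results of these data known. Values on every array are given for members with an unadjusted p under 0.05 and for the member with the smallest p of each role, and for a few others (IFIH1, IFI44L and ADAR, and RSAD2 and IFI27 among those not measured) chosen after their values were seen. The other pathway genes are named by the smallest p, 2 in a list, or by detection on no array. Replicate numbers were not taken as pairs. Where no array of a group detected a probe, the bound sets the mean of the brighter group against that array's lowest detected signal (or the dim probe's signal, if higher), averaged over arrays. Precision is limited by how few arrays there are.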

Additional observations from a re-analysis of the deposited data

How the results depend on the processing

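All alternatives were planned with earlier results of these data known. The count of called members was 0 in every alternative except array weights, which called 1 (DDX60) among 76 genes (48 higher, 28 lower). Within CpG-ODN these weights rest mainly on CpG-ODN 3 (5.25 against 0.244 and 0.335). Scaling to equal medians gave 175 genes and array weights 1894 at an unadjusted p under 0.05, the lowest and highest of the alternatives, against 395. The number measured was 28 with detection on all 6 arrays, 27 with a detection p under 0.01 and 38 with no filter. The median of the members lay between −0.11 (CpG-ODN 2 left out) and 0.06 (CpG-ODN 1 left out) when 1 array was left out, and from −0.09 to −0.03 in the other alternatives. The replicate block gave 0 called genes, 0 called members and an adjusted p of 0.916 for DDX60. Same-numbered arrays deviated together with correlations of 0.371, 0.046 and 0.11 over genes. Saline 1 was the best match of CpG-ODN 1 and saline 3 that of CpG-ODN 3, while the best match of CpG-ODN 2 was saline 3 (0.285). These values do not settle whether the numbers mark pairs, and they were not taken as pairs. Of 519 values of single members 455 kept their sign, and 8 members kept it in every alternative (DDX60, HERC5, IFI44, IFIH1, ISG15, ISG20, PARP14 and PARP9). The other signs, all of uncalled values, turned as follows, and the cause was not tested. With scaling to equal medians EIF2AK2 lay at 0.002, IFITM2 at 0.10 and IFITM3 at 0.049. With probes averaged per gene OAS1 lay at 0.12, OAS3 at 0.026, IFI6 at −0.039 and IFI44L at −0.087. With array weights MX1 lay at 0.29, GBP2 at 0.17, OAS1 at 0.17, HERC6 at 0.021, IFITM2 at 0.004, IFI6 at −0.003, SAMD9 at −0.17, IFI35 at −0.047, IFI44L at −0.087, EPSTI1 at −0.098 and IRF1 at −0.065. Without CpG-ODN 1 and 2, a fit of 1 array against 3 with the spread of saline alone, MX1 lay at 0.36, GBP2 at 0.14, OAS1 at 0.15, HERC6 at 0.024, TRIM25 at −0.008, IFITM2 at 0.008, IFITM3 at 0.012, IFI6 at −0.011, SAMD9 at −0.24, IFI35 at −0.020, IFI44L at −0.051, EPSTI1 at −0.097 and IRF1 at −0.087. With 1 array left out the values that turned ran from −0.18 to 0.27 for TRIM25, −0.35 to 0.12 for ADAR, −0.17 to 0.19 for OAS1, −0.24 to 0.30 for IFITM1, −0.20 to 0.17 for IFITM2, −0.26 to 0.15 for IFITM3, −0.06 to 0.23 for IFI44L, −0.16 to 0.05 for IFI16, −0.23 to 0.14 for GBP2, −0.28 to 0.087 for MX1, −0.12 to 0.18 for BST2, −0.48 to 0.084 for IFI30, −0.11 to 0.059 for HERC6, −0.004 to 0.23 for IRF1, −0.34 to 0.025 for IRF7, −0.04 to 0.16 for IFI6, −0.11 to 0.22 for IFI35, −0.17 to 0.035 for EIF2AK2 and −0.033 to 0.29 for SAMD9.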
